A study of Mus musculus with 7 samples.

Results

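The AP-1 factor genes Fos, Fosb, Fosl1, Fosl2, Jun, Junb, Jund, Batf, Batf3 and Atf3 were followed through cellular reprogramming by the called ATAC-seq peaks around them. The window of each gene was its body in GENCODE M21 (mm10) extended by 20 kb on each side. Touching or overlapping peaks of the 7 libraries were joined into regions, and 80 of the 104248 regions on chromosomes 1 to 19, X and Y fell in the windows of these 10 genes. The libraries came from MEFs before induction (day 0), from MEFs given doxycycline (2 µg/mL) and collected on days 1, 2, 3, 6 and 9, and from Bruce-4 ESCs. The MEFs were mouse embryonic fibroblasts from a cross of mice with the tetO-Pou5f1,-Klf4,-Sox2,-Myc allele in Col1a1 and mice with the rtTA*M2 transactivator in ROSA26, so each MEF library, day 0 included, carries the inducible cassette. The day 0 and ESC cells received no doxycycline, and the genotype entered for the ESC library is that of the MEFs. The reprogramming medium held more FBS than the MEF medium, so the serum and the induced factors cannot be told apart between day 0 and day 1. The protocol of the authors changes to ESC medium as the first colonies emerge, between day 6 and day 9. Medium and time thus cannot be told apart between these 2 days. Each time-point has 1 library, so no test between libraries was possible. Where a share is followed by a range, this is its exact (Clopper-Pearson) 95% interval, which covers counting error only, and shares without one are descriptions.

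AP-1 is a family of dimers of basic leucine zipper (bZIP) proteins. Jun proteins pair with each other or with Fos proteins, whereas Fos proteins need a Jun partner. The dimers bind the TPA response element (TRE) or the related cAMP response element (CRE, TGACGTCA). The TRE proper is TGACTCA or TGAGTCA, and TRE here stands for the wider pattern TGANTCA that was searched. Several members are immediate early genes, switched on within minutes of serum or stress through serum response factor at CArG boxes, and AP-1 sites are a known hallmark of the open chromatin of fibroblasts.

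The AP-1 windows held 62 of the 61191 peaks on day 0 and 31 of the 27023 peaks in ESCs. On days 1, 2, 3, 6 and 9 they held 50, 44, 48, 50 and 39 peaks. The bases covered by peaks in ESCs were 42.7% of those on day 0 in the AP-1 windows and 43.3% over all peaks, so the windows shrank in step with the libraries. The same did not hold for the regions open on day 0. Of the 60 day 0 regions in the windows, 32 (53.3%, 40.0% to 66.3%) had no peak in ESCs, against 78.6% of all 58812 day 0 regions. With the same number of widest peaks taken from each library these shares were 32.4% (12 of 37) and 60.6%. The median AP-1 window had 9.93 peaks per 100 kb on day 0, against 3.94 for the median window of all 21938 protein-coding genes. In ESCs the values were 4.59 against 1.95. The windows compared were not matched for gene length or for neighbouring genes, and the part of these in the gap was not tested. The read depth is unknown, so a missing peak means that opening was not detectable at this depth, and fewer cells with an open site cannot be told apart from a weaker opening in each cell.

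The labels were checked against marker genes. A peak within 1000 bp of a transcript start was found for 9 of 10 fibroblast markers on day 0 and for 3 of 10 in ESCs, with Thy1, Twist2, Col1a2, Col5a2, Pdgfrb and Zeb2 losing theirs. Of the 10 ESC markers, 5 had such a peak on day 0 and 3 in ESCs, so the promoter peaks of these genes do not mark the ESC library by themselves. Zfp42, a gene of the naive pluripotent state, had its 1 promoter peak in ESCs and in no other library, Esrrb and Pou5f1 had one in both day 0 MEFs and ESCs, and Nanog, Sox2, Dppa4, Sall4, Tfcp2l1, Tdgf1 and Utf1 had none in ESCs. The Dppa4 window covered 753 bp in ESCs and had no peak in the other libraries. The libraries of days 2 and 9 had fewer peaks in all (33129 and 32968) than those of days 1, 3 and 6 (44807 to 48040), and their part in the losses on those days was not tested.

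The following stretches of mm10 sequence show the kinds of distal site in these windows, which lie more than 1000 bp from any annotated transcript start. They are given 5′ to 3′ on the plus strand, with any TRE or CArG box in capitals. The first pair are the widest distal regions with a peak in all 7 libraries, both beside Fos and both intergenic, at chr12:85455223-85455522 and chr12:85485930-85486229. The second pair are the widest distal regions with a peak on day 0 and in no later library, upstream of Fosb at chr7:19316537-19316836 and in an intron of Atf3 at chr1:191201256-191201555. The fifth, at chr4:95038031-95038330 downstream of Jun, is the distal region with a peak in each doxycycline library and in neither day 0 MEFs nor ESCs. The last, at chr12:85667059-85667279 upstream of Batf, had a peak in ESCs alone.
Fos -18.5 kb: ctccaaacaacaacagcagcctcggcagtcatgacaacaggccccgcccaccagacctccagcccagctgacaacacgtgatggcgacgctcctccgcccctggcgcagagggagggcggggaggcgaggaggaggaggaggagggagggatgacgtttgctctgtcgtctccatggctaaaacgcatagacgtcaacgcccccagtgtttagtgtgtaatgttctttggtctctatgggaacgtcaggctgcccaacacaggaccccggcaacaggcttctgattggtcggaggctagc
Fos +12.2 kb: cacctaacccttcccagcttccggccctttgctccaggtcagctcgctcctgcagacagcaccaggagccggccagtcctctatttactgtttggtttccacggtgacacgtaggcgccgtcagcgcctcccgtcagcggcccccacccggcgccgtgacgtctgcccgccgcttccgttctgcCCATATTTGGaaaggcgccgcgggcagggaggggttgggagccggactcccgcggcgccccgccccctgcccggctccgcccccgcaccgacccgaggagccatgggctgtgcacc
Fosb -6.6 kb: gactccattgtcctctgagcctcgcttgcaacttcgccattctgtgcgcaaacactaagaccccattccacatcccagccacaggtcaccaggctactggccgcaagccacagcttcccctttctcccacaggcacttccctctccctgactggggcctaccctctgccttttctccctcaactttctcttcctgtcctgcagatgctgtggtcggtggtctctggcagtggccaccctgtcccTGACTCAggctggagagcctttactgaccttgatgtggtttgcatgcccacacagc
Atf3 +16.6 kb: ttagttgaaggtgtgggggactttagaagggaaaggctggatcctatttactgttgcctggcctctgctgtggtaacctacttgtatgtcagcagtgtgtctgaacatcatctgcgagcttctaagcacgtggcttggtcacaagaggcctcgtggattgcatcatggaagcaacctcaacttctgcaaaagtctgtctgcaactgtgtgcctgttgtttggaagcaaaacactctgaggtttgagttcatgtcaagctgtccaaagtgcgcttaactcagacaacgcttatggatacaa
Jun +14.0 kb: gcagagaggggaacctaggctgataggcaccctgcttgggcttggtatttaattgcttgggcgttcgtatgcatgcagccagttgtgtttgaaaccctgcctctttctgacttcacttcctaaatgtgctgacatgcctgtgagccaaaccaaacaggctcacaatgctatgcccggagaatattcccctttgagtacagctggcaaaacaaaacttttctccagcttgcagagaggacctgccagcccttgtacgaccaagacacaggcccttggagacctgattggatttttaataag
Batf -19.5 kb: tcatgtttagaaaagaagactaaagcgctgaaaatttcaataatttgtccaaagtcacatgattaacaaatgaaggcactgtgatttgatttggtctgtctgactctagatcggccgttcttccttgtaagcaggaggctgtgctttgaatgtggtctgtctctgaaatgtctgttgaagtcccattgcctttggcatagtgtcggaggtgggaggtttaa

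Distances are from the start of the gene to the middle of the region, in the direction of transcription. The Fos +12.2 kb sequence holds a CArG box, the Fosb -6.6 kb sequence holds the TRE TGACTCA, and the other 4 hold neither. The Batf -19.5 kb stretch is the whole region, of 221 bp. The 300 bp around its middle do hold a TGAGTCA, which does not lie wholly inside the printed stretch. GC content was high in the always open Fos sites, at 60.7% for the -18.5 kb region and 70.3% for the +12.2 kb region.

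**Figure D1:**
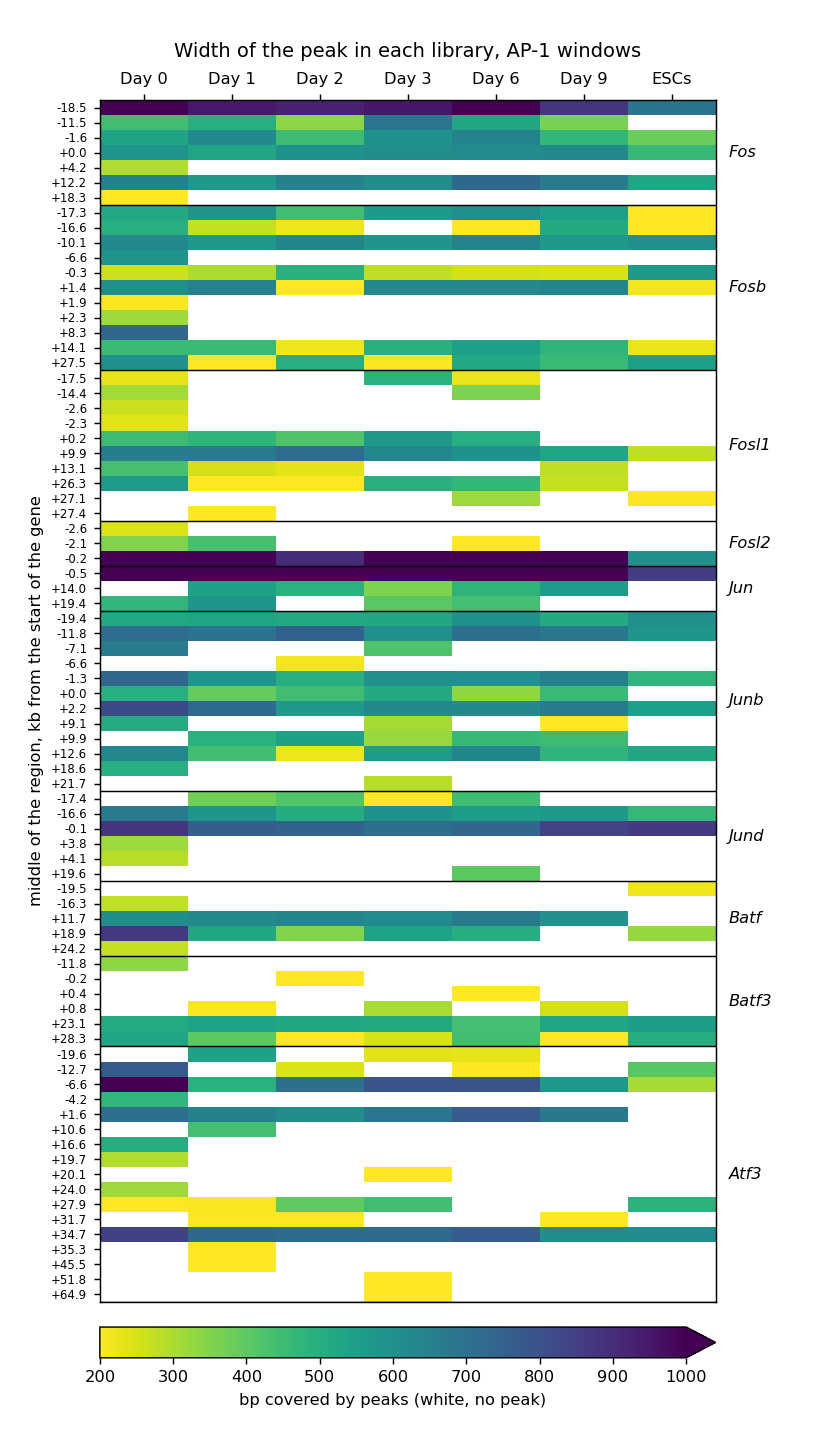
Each row is 1 of the 80 regions of the AP-1 windows, ordered by gene and by its distance in kb from the start of the gene, and each column is 1 library. Colour gives the bases covered by peaks in that library from 200 to 1000 bp or more, and white means no called peak. The 24 rows coloured throughout are the regions with a peak in all 7 libraries, and the 19 rows coloured on day 0 alone are spread over 9 of the 10 genes.

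The first question was which sites open in day 0 MEFs were also open in ESCs. A peak in all 7 libraries was found in 24 of the 80 regions (30.0%), against 9.74% of all regions. These 24 regions lay in 9 of the 10 windows, with none at Batf. A region that crosses the edge of a window was counted with all its peaks. At Fosb +27.5 kb the peaks of day 1 (200 bp) and day 3 (205 bp) lie beyond the edge. Another 4 regions were open in day 0 MEFs and in ESCs with a gap between, 5 had one from day 0 to day 9 and lost it in ESCs, and 8 had one on day 0 and in some doxycycline libraries. Day 0 alone had 19 regions (23.8%, against 23.9% of all regions). Regions with a peak in ESCs and none on day 0 were few, 2 of 80 (2.50%) against 12.9% of all regions. Thus the windows had a larger share of constant sites and a smaller share of sites gained in ESCs than the whole set of regions. Their share of sites of day 0 alone was nearly the same over all regions. Among the day 0 regions it was lower, 31.7% against 42.4%.

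Most of the lost regions had no peak after day 0, and the others were lost from day 6, from day 9 or in ESCs. Of the 60 day 0 regions, 24 (40.0%, 27.6% to 53.5%) had no peak on day 1, against 55.3% of all day 0 regions. On later days the numbers without a peak stayed close to that, with 25 on day 2 (41.7%, background 65.3%), 24 at day 3 (40.0%, background 54.7%), 23 at day 6 (38.3%, background 56.5%) and 28 at day 9 (46.7%, background 65.3%). The day of loss was taken as the first library from which no later library had a peak. By this count 19 of the 60 regions (31.7%) were lost from day 1, 0 from day 2, 0 from day 3 and 1 from day 6. Another 5 were lost from day 9 and 7 in ESCs, while 28 kept a peak in ESCs. Over all day 0 regions the shares were 42.4% from day 1, 3.58% from day 2, 1.03% from day 3, 5.94% from day 6, 10.0% from day 9, 15.7% in ESCs and 21.4% kept. The largest loss shares thus fell on day 1, day 9 and ESCs in both. The ESCs are a separate line and not a later stage of these MEFs, so a peak missing in ESCs alone is not a step in time. Day 9 and ESCs also had the fewest peaks in all (32968 and 27023), and the part of this in the losses was not tested. Of the 5 regions lost from day 9, 3 lay in the Fosl1 window, 1 in that of Fosl2 and 1 in that of Jun.

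Distance from a transcript start separated the windows from the background. Of the 25 day 0 regions within 1000 bp of a start of any gene, 5 (20.0%, 6.83% to 40.7%) had no peak on day 1, against 25.6% of all such regions, and 10 (40.0%, 21.1% to 61.3%) had none in ESCs, against 41.3%. Both shares are near the background. Of the 35 distal day 0 regions, 19 (54.3%, 36.6% to 71.2%) had no peak on day 1, against 67.3%, which lies inside the interval. In ESCs 22 of the 35 (62.9%, 44.9% to 78.5%) had no peak, against 93.7% of all distal day 0 regions, which lies above the interval. Among distal day 0 regions within 20 kb of a protein-coding gene the share was 93.1%. The regions of 1 window share a locus, which the interval does not take into account.

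**Figure D2:**
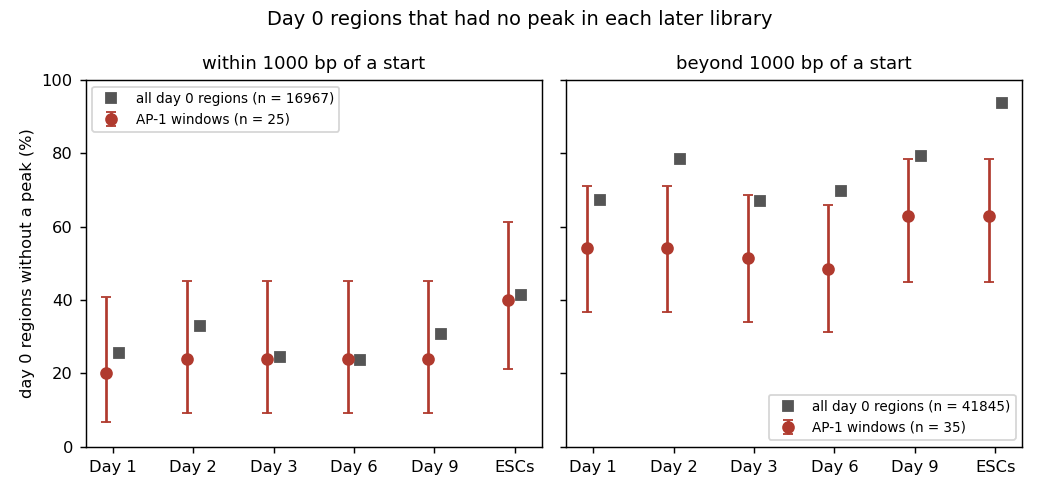
The share of day 0 regions without a peak, in %, is plotted for each later library, for regions within 1000 bp of a transcript start (left) and beyond (right). Circles are the AP-1 windows with exact 95% intervals, from 25 regions on the left and 35 on the right, and squares are all day 0 regions. The squares lie inside the intervals in each library on the left, and above them on the right on day 2, day 6, day 9 and in ESCs, with the widest gap in ESCs (62.9% against 93.7%).

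The width of the day 0 peak went along with its fate. The 24 regions with a peak in all 7 libraries covered a median of 636.5 bp on day 0, and the 19 regions of day 0 alone a median of 296 bp. Over all regions these medians were 710 and 245 bp, so the AP-1 windows shared this relation with the rest of the genome. Of the 10 distal regions covering under 300 bp on day 0, 9 (90.0%) had no peak in ESCs, against 97.6% of all distal day 0 regions of this width. Of the 10 distal regions of 300 to under 500 bp, 8 (80.0%) had none, against 94.4%. Of the 15 distal regions covering 500 bp or more, 5 (33.3%) had none, against 87.4%, so the gap from other distal sites was widest among the wide regions.

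**Figure D3:**
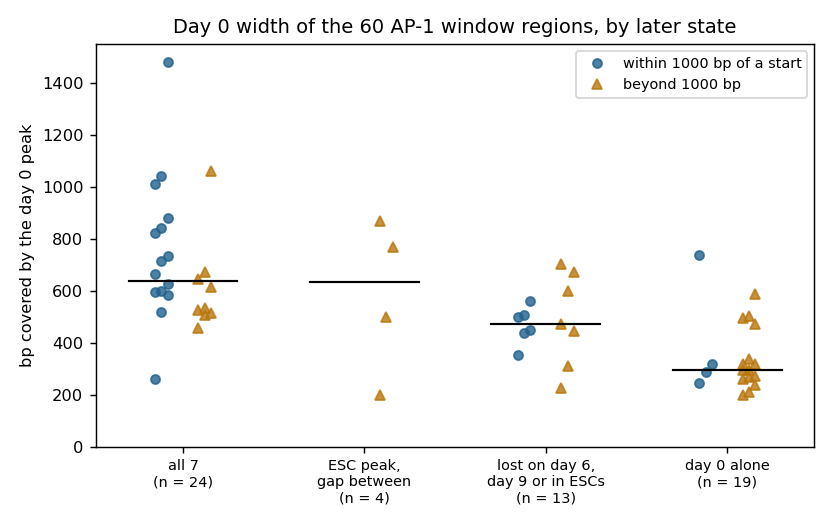
Each point is 1 of the 60 day 0 regions of the AP-1 windows, with the bases covered by its day 0 peak on the y axis and its later state on the x axis. Circles lie within 1000 bp of a transcript start, triangles lie beyond, and lines are medians, which were 636.5 bp for regions with a peak in all 7 libraries and 296 bp for day 0 alone.

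Of the 28 day 0 regions with a peak in ESCs, 15 lay within 1000 bp of a start of any gene and 13 were distal. Over all 12570 day 0 regions with an ESC peak, 9953 lay near a start and 2617 were distal. The kept regions of the AP-1 windows were thus more often distal than those of the whole set. Of the 60 day 0 regions, 11 lay within 1000 bp of a start of the member, 14 at the start of another gene and 35 were distal. At the members' own starts 0 of 11 lacked a peak on day 1 and 2 of 11 lacked one in ESCs. At other genes' starts 5 of 14 lacked a peak on day 1 and 8 of 14 lacked one in ESCs. Over all day 0 regions within 1000 bp of a start these shares were 25.6% and 41.3%. The kept regions at other genes' starts numbered 6 and lay in the windows of Atf3, Fosb, Fosl1 and Junb, which hold neighbours such as Rtn2, Hook2, Rnaseh2a and Ccdc85b. The 13 kept distal regions lay in the windows of Fosb (4), Fos (3), Atf3 (2), Batf3 (2), Batf (1) and Jund (1).

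The next comparison was between the promoters. A peak within 1000 bp of a start was present in all 7 libraries for 7 of the 10 members, Fos, Fosb, Fosl2, Jun, Junb, Jund and Atf3, against 42.6% of all protein-coding genes. Of the 8 members with such a peak on day 0, Fosl1 alone had none in ESCs, and 20.2% of all protein-coding genes with a day 0 promoter peak had none in ESCs. Batf had no promoter peak in any library, and Batf3 had one on days 1 to 9 only. A promoter peak was found for 8 members on day 0, for 9 on each of days 1, 2, 3 and 6, for 8 on day 9 and for 7 in ESCs, while the share of protein-coding genes with one ran from 50.3% in ESCs to 59.7% on day 0.

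Among the Fos proteins, Fos kept the largest share of its covered bases in ESCs, 54.7% of day 0. Its gene lies at chr12:85473890-85477273 on the plus strand with no other protein-coding gene in the window, and 4 of its 7 regions had a peak in all 7 libraries. The region at its start covered 585, 529, 591, 605, 610 and 620 bp from day 0 to day 9 and 464 bp in ESCs, so the ESC peak was the narrowest. The -18.5 kb region, printed above, was the widest distal region of all 10 windows and covered 1061 bp on day 0, 945, 926, 948, 1007 and 876 bp on days 1 to 9 and 690 bp in ESCs. The -1.6 kb and +12.2 kb regions covered 533 and 647 bp on day 0 and 380 and 526 bp in ESCs. The -11.5 kb region had a peak in each MEF library. It covered 445, 498, 338, 687, 519 and 362 bp from day 0 to day 9 and had no peak in ESCs. Regions at +4.2 and +18.3 kb, of 296 and 200 bp, had a peak on day 0 alone.

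Fosb, a paralog of Fos with the same immediate early expression, had the densest window on day 0, with 11 peaks. Its gene lies at chr7:19302696-19310051 on the minus strand, beside Rtn2. The covered bases were 5016 on day 0, 2824, 2325, 2532, 2978 and 3118 on days 1, 2, 3, 6 and 9, and 2109 in ESCs. The fall on day 1 came with 4 regions of day 0 alone, at -6.6, +1.9, +2.3 and +8.3 kb, while the other 7 regions all had a peak in ESCs. The region just upstream of the start (-0.3 kb) covered 261 bp on day 0 and 569 bp in ESCs, and between 248 and 492 bp on days 1 to 9, so it was widest in ESCs. The -10.1 kb region, in an exon of the RNA gene D830036C21Rik, hardly varied, from 567 to 639 bp across the 7 libraries.

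Fosl1 encodes Fra-1, a Fos protein known from migrating and transformed cells, and its window lost the largest share of its covered bases. Its gene lies at chr19:5447547-5455946 on the plus strand with 4 other protein-coding genes in the window. The covered bases were 3146 on day 0, 1798, 1568, 2176, 2449 and 1078 on days 1, 2, 3, 6 and 9, and 480 in ESCs, which is 15.3% of day 0 and the lowest share of the 10 windows. The region at the start covered 450, 475, 421, 566 and 495 bp from day 0 to day 6 and had no peak on day 9 or in ESCs. Upstream, the -17.5 kb region had a peak on days 0, 3 and 6 (225, 490 and 222 bp) and the -14.4 kb region on days 0 and 6 (310 and 354 bp). Of its 8 day 0 regions, the 1 that kept a peak in ESCs lies at the start of Ccdc85b, at +9.9 kb. The +27.1 kb region, at a start of Efemp2, was open on day 6 (318 bp) and in ESCs (204 bp) and in no other library.

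Fosl2 encodes Fra-2 and lies at chr5:32135801-32157842 on the plus strand. Its window held 3 regions, all within 2.6 kb of the start. The region at the start covered 1011, 1115, 898, 1061, 1042 and 1103 bp from day 0 to day 9 and 596 bp in ESCs, the narrowest of the 7. The -2.1 kb region had a peak on days 0, 1 and 6, and the -2.6 kb region on day 0 alone.

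Among the Jun proteins, Jun had a wide promoter region and little else. The gene lies at chr4:95049034-95052222 on the minus strand. The region at its start covered 1479, 1162, 1023, 1649, 1364 and 1120 bp from day 0 to day 9 and 854 bp in ESCs. The +14.0 kb region, printed above, is one of 2 regions of the 80 (2.50%) with a peak in each doxycycline library and in neither day 0 MEFs nor ESCs, against 2.84% of all regions. It covered 542, 489, 354, 480 and 562 bp on days 1, 2, 3, 6 and 9. The +19.4 kb region had a peak on days 0, 1, 3 and 6. With the +14.0 kb site, the Jun window covered more bases on days 1, 3 and 6 (2282, 2407 and 2282 bp) than on day 0 (1951 bp), which no other member showed.

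**Figure D4:**
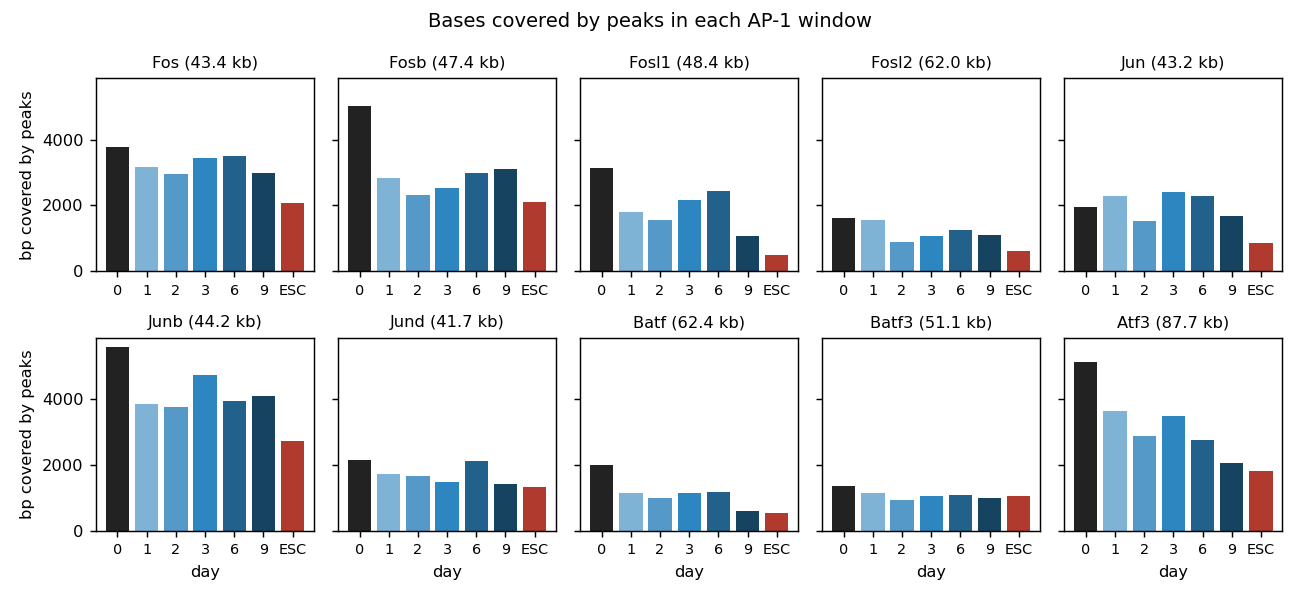
Bars give the bases covered by peaks in the window of each of the 10 genes, whose length in kb stands in the title of its panel, on day 0 (black), days 1 to 9 (blue) and in ESCs (red). Jun is higher on days 1, 3 and 6 than on day 0, and Fosl1 is lowest in ESCs, with 480 bp against 3146 bp on day 0.

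Junb, often an antagonist of Jun in growth control, had the second densest window on day 0, with 9 regions and 5586 bp. The gene lies at chr8:84974484-84978718 on the minus strand among 5 other protein-coding genes. The region over its start covered 499, 390, 444, 511, 333 and 459 bp from day 0 to day 9 and had no peak in ESCs. The regions on both sides of it, at -1.3 and +2.2 kb, had a peak in all 7 libraries, of 732 and 821 bp on day 0 and 473 and 549 bp in ESCs. In ESCs the promoter as defined above counts as open through the +2.2 kb peak alone, which lies at an internal start of Junb. The other region with a peak in each doxycycline library alone lies in this window at +9.9 kb, near the start of Gm49661, and covered 488, 541, 323, 464 and 451 bp on days 1, 2, 3, 6 and 9. The 250 bases before the RefSeq start of Junb (GRCm38.p6, chr8:84978749-84978998, read on the minus strand), which lie wholly within the region lost in ESCs, hold no TRE, CRE or CArG box. They were chosen for display after the values were seen.
Junb upstream: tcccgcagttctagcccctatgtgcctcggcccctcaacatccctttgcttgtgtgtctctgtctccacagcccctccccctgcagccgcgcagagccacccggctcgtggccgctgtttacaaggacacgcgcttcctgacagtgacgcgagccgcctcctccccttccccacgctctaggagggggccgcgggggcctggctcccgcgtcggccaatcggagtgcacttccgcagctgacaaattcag

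Jund, the Jun protein most widely present in resting cells, had the steadiest start region of the 3. The gene lies at chr8:70698949-70700616 on the plus strand. The region at the start covered 879, 759, 745, 706, 736 and 839 bp from day 0 to day 9 and 863 bp in ESCs. The Fos, Jun, Junb and Fosl2 starts were narrowest or without a peak in ESCs, and that of Jund was not. The -16.6 kb region had a peak in all 7 libraries, from 466 bp in ESCs to 673 bp on day 0, and the -17.4 kb region had one on days 1, 2, 3 and 6 only. Regions at +3.8 and +4.1 kb, near the start of Iqcn, had a peak on day 0 alone.

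**Figure D5:**
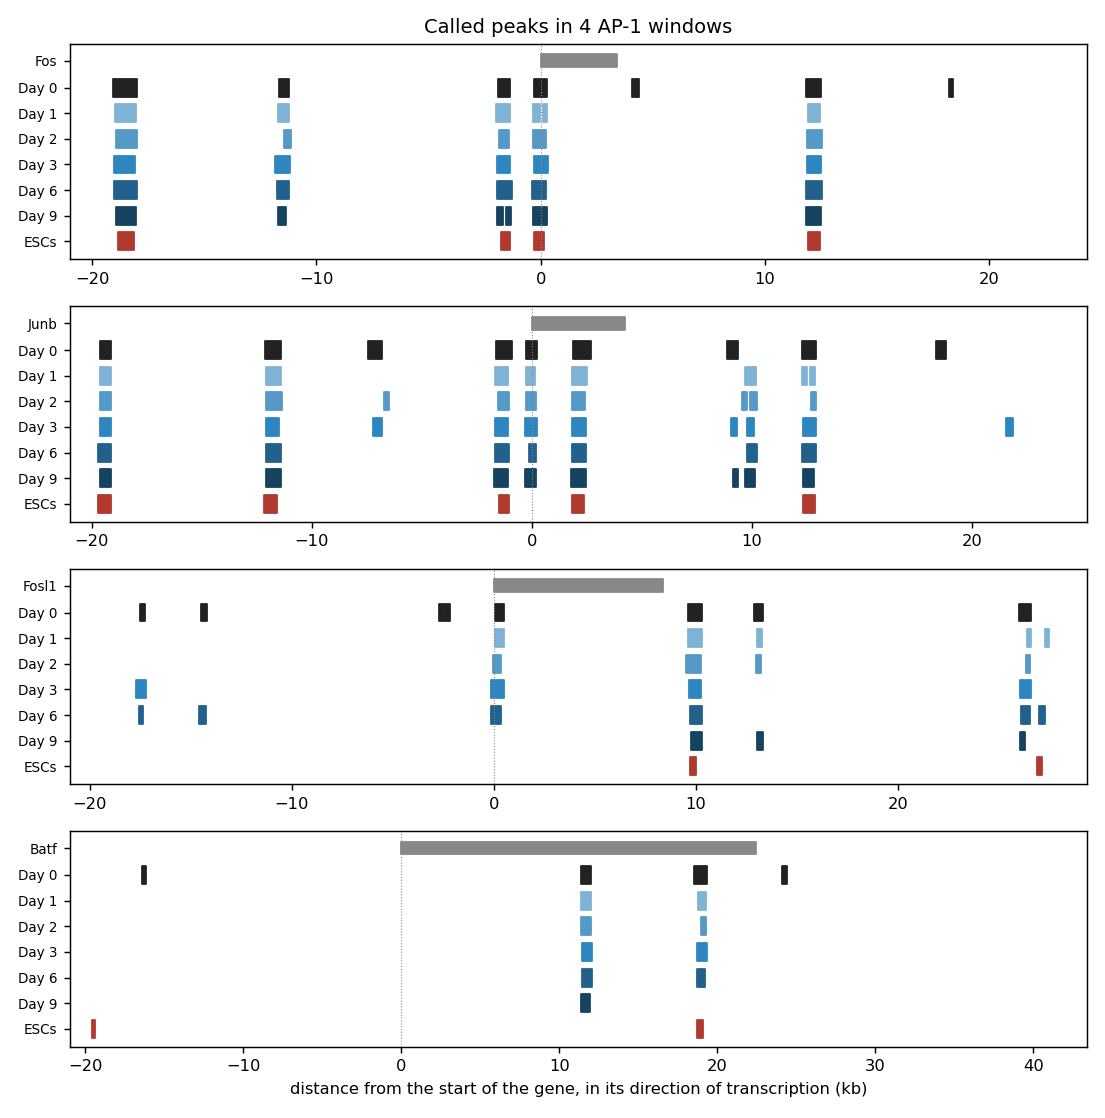
Each bar is a called peak at its distance in kb from the start of Fos, Junb, Fosl1 or Batf, one row per library, with the gene body in grey. The Fos start has a peak in all 7 libraries, the peak over the Junb start is missing in ESCs, the Fosl1 start has none on day 9 or in ESCs, and no peak lies at the Batf start.

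Batf and Batf3 are small bZIP proteins without the activation domains of Fos, known from lymphocytes and dendritic cells. Batf, at chr12:85686669-85709087 on the plus strand, had no peak at its start in any library but 2 wide regions inside the gene. The intronic +11.7 kb region covered 600, 622, 632, 615, 669 and 594 bp from day 0 to day 9 and had no peak in ESCs. The intronic +18.9 kb region covered 867 bp on day 0, 522, 353, 535 and 501 bp on days 1, 2, 3 and 6, had no peak on day 9 and covered 325 bp in ESCs. The -19.5 kb region of 221 bp, printed above, was open in ESCs alone. Batf3, at chr1:191097847-191108945 on the plus strand, had 3 small regions near its start with peaks of 209, 200, 301, 200 and 253 bp on days 1, 2, 3, 6 and 9, at different places, which is near the smallest peak of 200 bp in these files. Its 2 downstream regions at +23.1 and +28.3 kb had a peak in all 7 libraries, and its window kept 76.8% of its covered bases in ESCs, the highest share of the 10.

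Atf3, a stress-induced bZIP protein that pairs with Jun proteins, has the longest gene of the 10, at chr1:191170296-191218039 on the minus strand, and the most regions, 17. No peak lay within 1000 bp of the end of the gene record that GENCODE gives as its start. One of its 2 regions with a peak in all 7 libraries lies at an internal start, +34.7 kb along the gene, where RefSeq places the promoter, and covered 842, 732, 720, 728, 767 and 603 bp from day 0 to day 9 and 610 bp in ESCs. The other, at -6.6 kb and a start of the RNA gene D730003I15Rik, covered 1040, 489, 706, 791, 796 and 573 bp from day 0 to day 9 and 306 bp in ESCs. The +1.6 kb region covered 704, 647, 606, 685, 771 and 680 bp from day 0 to day 9 and had no peak in ESCs. The +27.9 kb region, which holds TGAGTCA, had a peak on days 0 to 3 (200, 204, 395 and 446 bp), none on days 6 and 9, and one of 484 bp in ESCs. Regions at -4.2, +16.6, +19.7 and +24.0 kb had a peak on day 0 alone, and 8 regions had none on day 0, most of them 200 bp wide in 1 library. The covered bases were 5140 on day 0, 3651, 2872, 3483, 2765 and 2056 on days 1 to 9 and 1807 in ESCs.

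Motifs in the 300 bp around the middle of each region were searched next, on both strands. The TRE, as TGANTCA, was present in 12 of the 60 day 0 regions (20.0%, 10.8% to 32.3%), against 28.4% of all day 0 regions, which lies inside the interval. In the Atf3 +24.0 kb and Fosb +2.3 kb regions the only match was TGATTCA and TGAATCA, which the wider pattern takes in. In distal regions it was present in 11 of 35 (31.4%), against 35.5%. Of the 12 regions with a TRE, 8 had no peak in ESCs (66.7%, against 93.3% of all day 0 regions with one). Of the 48 without a TRE, 24 had none (50.0%, against 72.8%). Among the distal regions the shares were 63.6% with and 62.5% without a TRE, so the gap from the background was there in both. Of the 24 regions with a peak in all 7 libraries, 2 held a TRE (8.33%, against 7.38%), one 17.3 kb upstream of Fosb and one 16.6 kb upstream of Jund. The CRE was present in 1 of the 60 regions, against 1.09% of all day 0 regions, and lies in the start region of Jund. The CArG box was present in 5 of the 60 (8.33%), against 1.72%, and the 5 lie in the Fosb -0.3 kb, Junb -1.3 and -11.8 kb and Fos +4.2 and +12.2 kb regions. Over the whole width of the regions, the Fos start and the Junb +2.2 kb region each held 1 more.

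The CArG boxes beside the Fosb and Junb starts and the CRE of Jund are shown on the plus strand, with the motif in capitals, since these 3 regions had a peak in all 7 libraries. They lie at chr7:19310244-19310543, chr8:84979898-84980197 and chr8:70698709-70698768, and were chosen after the motif counts were seen.
Fosb -0.3 kb: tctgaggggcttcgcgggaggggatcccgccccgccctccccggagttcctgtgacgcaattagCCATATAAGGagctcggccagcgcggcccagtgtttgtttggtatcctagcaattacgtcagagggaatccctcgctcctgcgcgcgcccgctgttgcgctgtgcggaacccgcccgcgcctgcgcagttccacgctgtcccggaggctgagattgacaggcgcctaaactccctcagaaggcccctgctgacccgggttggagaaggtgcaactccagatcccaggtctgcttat
Junb -1.3 kb: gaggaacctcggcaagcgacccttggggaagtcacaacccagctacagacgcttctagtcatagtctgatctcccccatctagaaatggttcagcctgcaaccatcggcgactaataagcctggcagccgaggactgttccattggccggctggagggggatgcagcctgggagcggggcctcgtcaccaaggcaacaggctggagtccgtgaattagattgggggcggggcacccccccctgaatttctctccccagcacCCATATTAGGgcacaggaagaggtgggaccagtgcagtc
Jund -0.1 kb: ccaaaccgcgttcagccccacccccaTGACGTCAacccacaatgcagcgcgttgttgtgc

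In the RefSeq promoter table (250 bases before to 50 after each start, GRCm38.p6) 9 of the 10 members were found and Fosl1 was not. None of the 9 promoters held a TRE, CRE or CArG box by these letters, against 7.81%, 1.79% and 1.63% of all 32851 promoters. The 250 bases before the RefSeq start of Jund (chr8:70697489-70697738) lie outside its start region (chr8:70698375-70699317), which holds the CRE. The CArG box of the Fos start region likewise lies outside the stretch searched here. The absence of a motif thus holds for these stretches only. The 24 regions with a peak in all 7 libraries had a median GC content of 64.7% and an observed-to-expected CpG ratio of 0.76, close to the 65.0% and 0.81 of all regions of that class. The 9 distal regions among them had 64.7% and 0.64, against 54.3% and 0.33 over all distal regions of that class. The 22 distal regions without an ESC peak had 51.3% and 0.28, against 46.3% and 0.19.

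The genes around AP-1 in its pathway were read from lists. Of 21 other bZIP factors, 19 had a promoter peak on day 0 and 18 in ESCs, with Atf6 losing its peak. Of 16 kinases, phosphatases and factors that act on AP-1, 15 had one on day 0 and 14 in ESCs, with Elk3, a partner of serum response factor, losing its peak. Of 13 textbook AP-1 target genes, 10 had one on day 0 and 3 in ESCs, a loss at 7 of 10, whereas 20.2% of all protein-coding genes with a day 0 promoter peak had none in ESCs. The 7 that lost their day 0 peak were Plau and Timp1, a matrix protease and a protease inhibitor, Il6 and Ccl2, secreted signals, Ccnd1, a cyclin, Cd44, a surface receptor, and Lox, which crosslinks collagen. Of these, 6 had a peak from day 0 through day 9, and Ccnd1 had one on days 0, 1 and 3. Neither Mmp3 nor Mmp13 had a promoter peak in any library, and Plaur had one on day 1 alone. Of the 9 fibroblast markers with a day 0 promoter peak, 6 had none in ESCs, so the loss was not particular to the target genes. The lists were chosen with earlier results of these data known, so these contrasts are descriptions only. In the windows of the target genes 35 of 42 day 0 regions (83.3%) had no peak in ESCs, against 100 of 133 (75.2%) for the other bZIP factors, 53 of 79 (67.1%) for the kinases and factors, and 61 of 77 (79.2%) for the Runx, Tead and Cebp genes, of which Tead2 lost its promoter peak. The share of 53.3% in the AP-1 windows was the lowest of these lists, and 57 of 62 (91.9%) for the fibroblast markers was the highest. The ESC markers were close to that, with 20 of 22 (90.9%). These are descriptions beside the 78.6% of all day 0 regions, and no difference between the lists was tested. The lists were not split by distance from a transcript start. Their mix of promoter and distal regions may differ, and its part in this order was not tested.

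The window most like the sum of the AP-1 windows in covered bases over the 7 libraries was that of Creb5 (Pearson r = 0.988), followed by Bach2 (0.976), both bZIP genes, and Col1a2 (0.973). The 75 list genes covered in at least 4 libraries had a median r of 0.838 and a lowest of -0.497. The points share the number of peaks in each library, so a high r is common, and r does not measure how far a window fell. The ESC library covered 638 of the 9925 bp of day 0 at Creb5, 692 of 10482 bp at Bach2 and 0 of 2693 bp at Col1a2, against 13552 of 31751 bp (42.7%) in the AP-1 windows, which thus kept more.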

How the data were processed

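ATAC-seq was analysed in 7 mouse libraries, 1 per time-point, grouped by the time-point in the labels. Per the methods of the authors, reads trimmed to 50 bp (Trimmomatic) were aligned to mm10 by Bowtie2, Picard took out duplicates, and each library was brought down to one shared depth, which is not given in the sources used here. MACS2 peaks were called for every library on its own at a q-value of 0.05. The deposited files give peak coordinates only, without a score or read count, so depth is unknown and widths rather than signal were compared. Peaks were overlapped at 1 bp or more with Python, numpy 2.4.6, scipy 1.17.1 and pysam 0.24.0, and joining was checked against BEDTools and tested on simulated data. Genes are those of GENCODE M21, and positions count from 1. The members and lists were chosen with earlier results of these data known. Besides all 10 members, the genes named are those of the lists whose promoter lost or gained a peak between day 0 and ESCs, and the 3 with the most alike windows; the markers and target genes without a peak and the neighbours in the windows were named after their values were seen. Sequences printed are the widest distal regions of each class, at most 2 a class, and those said to be chosen later. Alternatives were other window sizes, peak widths, start distances, ways of joining peaks, motif windows, and the same number of widest peaks from each library.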

Additional observations from a re-analysis of the deposited data

How the results depend on the processing

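Of 29 alternative settings over 6 results, 26 left the value within its 95% interval or within 1.5 times the count. With windows of 50 kb the day 0 regions numbered 113 in place of 60. With the same number of widest peaks from each library, 27023, they numbered 37, and the share without a peak in ESCs was 32.4% in place of 53.3%, against 60.6% of all day 0 regions treated alike, so the lower share in the AP-1 windows kept its direction. In the distal regions that setting gave 42.1% against 88.7%. The other settings gave shares between 50.0% and 62.8% in ESCs and, with the widest peaks included, between 33.3% and 42.5% on day 1. The day 1 losses numbered 24 in place of 19 by the first library without a peak, and 19 without days 2 and 9. At the end of the gene record alone, 5 promoters had a peak in all 7 libraries in place of 7. The TRE share was below that of all day 0 regions in the middle 200 bp (16.7% against 20.9%) and in whole regions (25.0% against 30.1%). No paired analysis was possible because the 7 libraries stand for 7 different states and the results come from no test. For the same reason no library could be left out of a group, and no share can be set against the spread between replicates.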

Other observations

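Regions of the AP-1 windows with a peak in 1 doxycycline library and in neither day 0 MEFs nor ESCs numbered 12 of 80 (15.0%), against 17.1% of all regions, and 4 more had a peak in 2 to 4 doxycycline libraries (5.00%, against 10.8%). The 12 lay in the windows of Atf3, Batf3, Fosl1, Junb and Jund, and Fos, Fosb, Fosl2, Jun and Batf had none. The core consensus of CTCF, a factor of chromatin loops, was in the middle 300 bp of 0 of the 60 day 0 regions, against 2.86% of all. It was in 0 of the 9 distal regions with a peak in all 7 libraries, against 6.49% of all such regions. With so few regions, 0 is near both shares. This motif was chosen after the data were seen, and no match in these letters says nothing of the factor. The nearest regions outside the 20 kb limit lay between 20167 and 24978 bp from the gene bodies, and those of Fosl1 and Jund had a peak in all 7 libraries.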
